A study of Homo sapiens with 12 samples.

Results

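The translation initiation and elongation factors are the proteins that bring ribosomes to messenger RNA, find the start codon and move the ribosome along the reading frame. The probes whose annotated gene symbol begins with EIF1 to EIF6, EEF1 or EEF2 were taken from an Illumina bead array table of human cells, with pseudogene probes left out. They numbered 108 of 47312 probes and covered 66 of 20043 genes. Of these, 89 probes of 62 genes had a detection p-value below 0.01 on 3 or more of the 12 arrays and were analysed, among 20909 probes of all genes that passed the same filter. The other 19 probes included 16 that were detected on no array, and EIF1AD, EIF4E1B, EIF5AL1 and the Y-linked EIF1AY had no probe left. The count of detected probes describes these arrays and not the family, since a probe that is dim in every group could not enter.

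The study used isogenic HEK293 lines, derived from human embryonic kidney cells, that stably express either the wild-type glucocorticoid receptor (wtGR) or GR3KR, a form of it that cannot be SUMOylated, in medium with hygromycin. Each line received 100 nM of the synthetic glucocorticoid dexamethasone (dex), either alone or with 5 µM of the cyclopentenone prostaglandin 15d-PGJ2, for 6 h after 36 h in steroid-depleted medium. All 4 groups of 3 arrays thus hold dexamethasone, and no group lacks it. The labels call the arrays triplicates and do not say whether they came from separate cultures, so each p-value measures only the spread between these samples, which may be technical. With 1 line for each receptor form, the receptor and other differences between the lines cannot be told apart, and in bulk RNA fewer cells of a type and less RNA per cell cannot be told apart either.

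Initiation begins when the eIF2 complex, loaded with GTP by eIF2B, carries the initiator tRNA to the small ribosomal subunit together with eIF1, eIF1A, eIF3 and eIF5. The cap-binding complex of eIF4E, the helicase eIF4A and the scaffold eIF4G recruits the messenger RNA, the eIF4E binding proteins block eIF4E, and kinases that phosphorylate eIF2 alpha slow initiation under stress. In elongation, eEF1A brings aminoacyl-tRNA, the eEF1B subunits exchange its nucleotide and eEF2 moves the ribosome. 15d-PGJ2 is known to bind eIF4A and to interfere with its contact with eIF4G. Many messenger RNAs of the translation machinery start with a terminal oligopyrimidine tract, through which mTOR controls their translation.

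That tract was looked for at the annotated starts of the member genes, because it is known from many, but not all, genes of the translation machinery. The windows below hold 15 bases before and 15 bases from the annotated start in RefSeq on GRCh38.p14, read on the transcript's strand, and the capitals mark the run of pyrimidines that begins at the start base. A tract was counted where the start base is C and at least 4 pyrimidines follow it, so a run of 5 or more bases, searched at the start position on the transcript's strand only. The first 5 windows carry it and the last, of EEF1G, does not.

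EEF1A1 (chr6:73521018-73521047, minus strand): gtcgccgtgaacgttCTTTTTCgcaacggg
EEF1B2 (chr2:206159880-206159909, plus strand): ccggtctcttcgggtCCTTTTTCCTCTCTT
EEF2 (chr19:3985449-3985478, minus strand): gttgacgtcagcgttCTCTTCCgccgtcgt
EIF3F (chr11:7987322-7987351, plus strand): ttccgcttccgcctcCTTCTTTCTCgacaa
EIF4B (chr12:53006441-53006470, plus strand): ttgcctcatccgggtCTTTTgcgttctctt
EEF1G (chr11:62573877-62573906, minus strand): tctcccgggcggcttactttgcggcagcgc

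Of the 48 member genes matched by symbol to a RefSeq start, 12 (25.0%) had such a start, against 5.14% of all 27305 genes in the same table. The member genes had been filtered for detection on these arrays, and the 27305 genes had not. Counted by start site, the tract stood at 18.8% of the 64 member starts and at 4.07% of all 35116 starts. The 12 genes were EEF1A1, EEF1B2, EEF2, EIF2A, EIF2D, EIF2S3, EIF3D, EIF3F, EIF3K, EIF3M, EIF4A2 and EIF4B. EEF1B2 had a second annotated start without it. A match describes these letters at an annotated base and does not show where transcription began in these cells.

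The arrays were unequal in a way that touches most results below. The GR3KR arrays with 15d-PGJ2 detected 15223, 14207 and 17032 probes, and the other 9 arrays 17959 to 19950; of the 89 member probes they detected 74, 74 and 83, against 83 to 89. The median raw intensity was 58.3 to 64 on these 3 arrays and 69.3 to 89.6 on the others. An index of how far probes of the same gene disagree, the first principal component (73.5% of the variance) of the difference between the 2 brightest probes in 3210 genes outside the family, came to -0.618, -0.556 and -0.13 for the GR3KR cells given 15d-PGJ2 and to -0.116 for wtGR dex array 3, against 0.0955 to 0.236 on the other 8. Arrays 1 and 2 of the GR3KR 15d-PGJ2 group and wtGR dex array 3 are left out in a second fit, chosen after the data were seen. This choice is uneven, since GR3KR 15d-PGJ2 array 3 stays in although its index is lower than that of wtGR dex array 3. GR3KR 15d-PGJ2 array 3 also detected fewer probes, 17032 against 18392. The values fitted are still those normalized over all 12 arrays. In the second fit the lone GR3KR 15d-PGJ2 array is assumed to vary like the other groups. Wherever GR3KR cells given 15d-PGJ2 enter, a call in the second fit rests on this 1 array. The planned fit, which kept wtGR dex array 3, called fewer member probes there. A call without the 3 arrays is therefore weak evidence that a result holds. No columns were identical, and the closest arrays correlated at 0.9939. Of the cell type markers, 6 of 7 HEK293 genes were measured, with summed log2 levels of 12.61 to 13.51 in wtGR dex, 13.11 to 13.3 in wtGR 15d-PGJ2, 13.37 to 13.72 in GR3KR dex and 12.53 to 13.19 in GR3KR 15d-PGJ2 arrays. PAX2 was below the detection filter. Of 5 fibroblast markers only COL1A1, of 5 leukocyte markers only CD14 and of 3 hepatocyte markers ALB and APOA1 passed it. COL1A1 lay at 6.13 to 7.47 over the 12 arrays, CD14 at 6.39 to 8.55 and the hepatocyte sum at 6.51 to 8.54; the highest value of each of these 3, and the lowest HEK293 sum, came from GR3KR 15d-PGJ2 arrays. The part of these markers in the results was not tested.

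Under dexamethasone alone, 5 of the 89 probes were lower in GR3KR than in wtGR cells and none was higher. These were EIF1, EIF1B, EIF5, EEF1A2 and EIF2B2. The share of 5.62% stood beside 4.62% of all 20909 probes, of which 3.08% were called lower, so the count itself is near the background. Calls here and below are limma adjusted p-values under 0.05, Benjamini-Hochberg over all 20909 probes, and levels are log2 intensities after background correction and quantile normalization. This comparison of the lines does not use the GR3KR 15d-PGJ2 arrays other than for the shared spread.

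EIF1, which keeps the scanning ribosome from starting at wrong codons, read 13.83, 13.92 and 14.07 on the wtGR dex arrays and 13.07, 12.97 and 12.84 on the GR3KR dex arrays (ILMN_1803846). The groups did not overlap, and EIF1 was 1.97-fold lower, a log2 difference of -0.98 (SE 0.18, adjusted p = 0.0141). With 15d-PGJ2 it read 13.7, 13.81 and 13.77 in wtGR and 12.29, 12.66 and 12.96 in GR3KR cells, again without overlap.

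EIF1B, a close paralog of EIF1, read 11.92, 11.84 and 11.66 against 10.7, 10.87 and 10.94 under dexamethasone (ILMN_1679324). Its level in GR3KR cells was lower 1.96-fold (log2 -0.97, SE 0.19, adjusted p = 0.0187). All 6 GR3KR arrays, which lay between 10.09 and 10.94, were below all 6 wtGR arrays.

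EIF5, which triggers GTP hydrolysis by eIF2 at the start codon, had 4 probes. By ILMN_1786734 it read 6.71, 6.7 and 6.72 against 6, 5.95 and 5.61, a 1.81-fold lower level (log2 difference -0.86, SE 0.18, adjusted p = 0.0227). ILMN_2318430 differed by -1.30 (SE 0.39, adjusted p = 0.0953) and was called at -1.19 without the 3 arrays (adjusted p = 0.00326). Its remaining probes did not pass the test: ILMN_1815733 read 10.79, 10.62 and 8.95 in wtGR and 9.94, 9.42 and 10.05 in GR3KR cells, and ILMN_1657769 was detected on 3 of 12 arrays.

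EEF1A2, the eEF1A form known from neurons and muscle, read 13.21, 12.72 and 12.68 against 11.74, 11.97 and 11.86 (ILMN_2108735). The level in GR3KR cells was 2.02-fold lower (log2 difference of -1.01, SE 0.23, adjusted p = 0.0314). Its sequence is close to that of EEF1A1, and how far the probe tells them apart is not given. EIF2B2, a regulatory subunit of eIF2B, read 11.24, 11.23 and 11.19 against 10.65, 10.61 and 10.71 (ILMN_1713380), the smallest of the 5 differences (1.48-fold, log2 difference -0.56, SE 0.13, adjusted p = 0.0392). For both genes all 6 GR3KR arrays lay below all 6 wtGR arrays.

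All 5 probes had a log2 difference below 0 in each alternative that kept them. All 5 were also called without the 3 arrays, where 12 members (13.5%) were called, 3 higher and 9 lower, against 10.8% of all probes, 4.8% higher and 5.99% lower. Leaving out single arrays ended calls: the count was 1 without wtGR dex array 1, wtGR dex array 3 or GR3KR dex array 1, 0 without wtGR dex array 2, GR3KR dex array 2 or GR3KR dex array 3, 3 without wtGR 15d-PGJ2 array 1 or 2, and 8 without GR3KR 15d-PGJ2 array 1. The adjusted p of EIF1 then lay between 0.00354 and 0.0789. Groups did not overlap in 33 member probes, 37.1% where all probes gave 31.4%.

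EIF4EBP1, the binding protein that blocks eIF4E, had a larger difference that missed the threshold over all arrays. It read 9.1, 9.33 and 9.54 in wtGR and 7.56, 7.95 and 8.03 in GR3KR cells under dexamethasone (log2 difference -1.48, SE 0.40, adjusted p = 0.0672). Without the 3 arrays it was called at -1.37 (adjusted p = 0.00549), with EIF2S2 at -0.68 (adjusted p = 0.0302) and EIF2AK3, the eIF2 alpha kinase of endoplasmic reticulum stress, at -0.75 (adjusted p = 0.0453). The higher calls in that fit were EEF2K, the kinase that inhibits eEF2, at 0.58, EIF4E2, a cap-binding protein that represses translation, at 0.72, and EEF1B2 (ILMN_1694587) at 0.81, with adjusted p of 0.0425, 0.0368 and 0.0351. Of the remaining genes followed throughout, EIF2S1, the alpha subunit of eIF2, differed by -0.44 (adjusted p = 0.247), EEF2 by 0.04 (adjusted p = 0.94) the EEF1A1 probes by -0.17 to 1.20 and EEF1G by 1.60 (adjusted p = 0.567), where wtGR dex array 3 read 9.44 against 14.12 and 13.97.

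**Figure D1:**
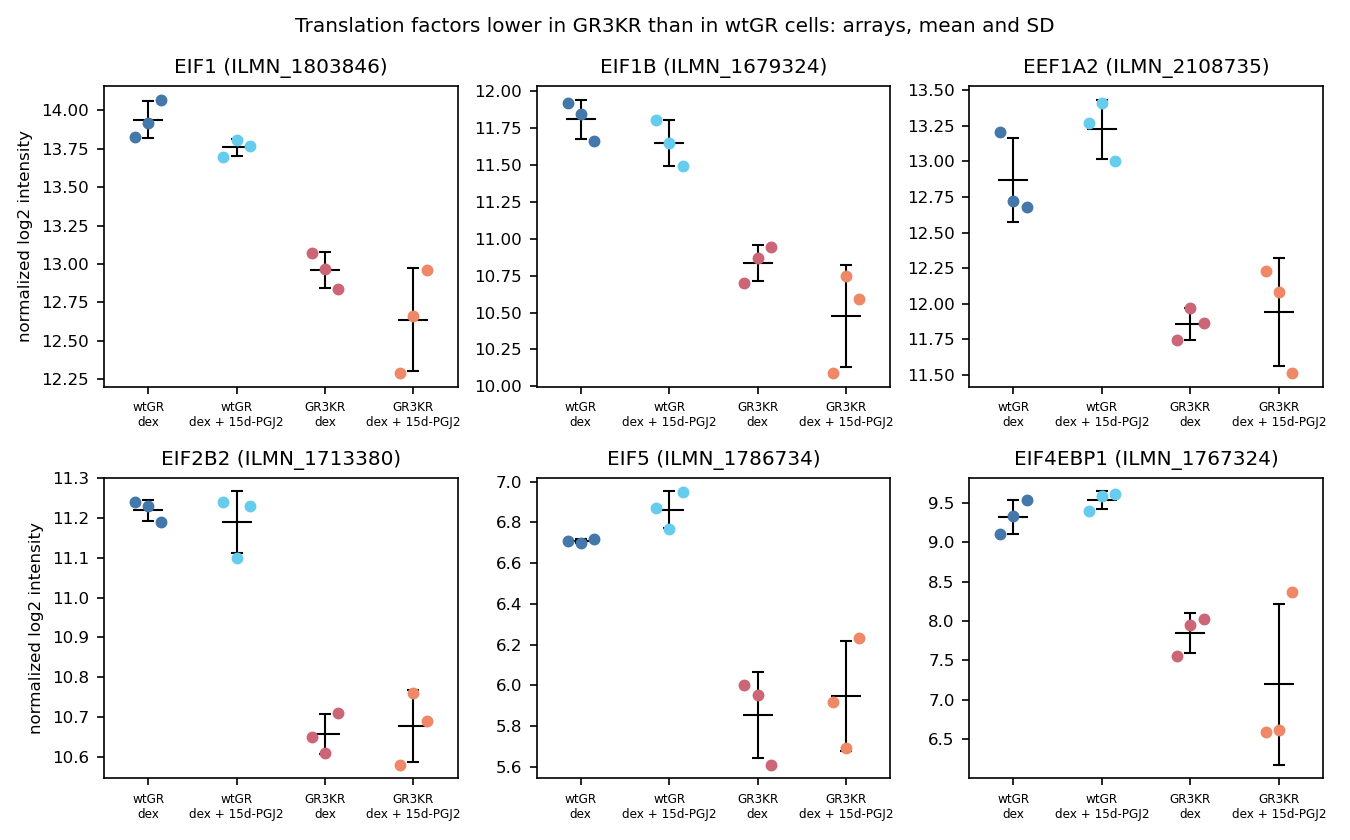
Normalized log2 intensity (vertical axis) of 6 probes on every array, by line and treatment, with the group mean and SD as bars. In the panels of EIF1, EIF1B, EEF1A2, EIF2B2 and EIF5 every GR3KR point lies below every wtGR point; EIF4EBP1 shows the same order, with 2 of the 3 GR3KR 15d-PGJ2 arrays at 6.59 and 6.62.

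In wtGR cells, none of the 89 translation factor probes passed limma's test of the 15d-PGJ2 effect, where 0.0765% of all probes were called. An unadjusted p under 0.05 was reached by 4 member probes, 1 higher and 3 lower. The median log2 difference of the members was 0.01, beside -0.03 over all probes, and the groups were apart without overlap in 21 member probes (23.6%, against 18.5% of all probes). The count was also 0 without the 3 arrays (10 with an unadjusted p under 0.05), where 0.201% of all probes were called, while a fit with array weights called 18 (9 higher and 9 lower), where it called 29.6% of all probes.

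The 4 probes with the smallest p-values belonged to EIF5A2, EEF1AKMT1, EIF2S2 and EIF4A2. EIF5A2, a paralog of the elongation factor eIF5A, read 7.25, 7.01 and 6.89 under dexamethasone and 6.03, 6.33 and 6.26 with 15d-PGJ2 (log2 difference -0.84, SE 0.27, adjusted p = 0.508). EIF2S2, the beta subunit of eIF2, read 8.57, 8.86 and 9.08 and then 9.25, 9.38 and 9.54 (0.55, SE 0.21, adjusted p = 0.58). In both genes the groups did not overlap, as was the case for EEF1AKMT1, a lysine methyltransferase of eEF1A (-0.62, adjusted p = 0.571), and the helicase EIF4A2 (-0.40, adjusted p = 0.624).

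Other roles were represented by values that did not pass either. The scaffold EIF4G1 (ILMN_1768470) differed by 0.41 (adjusted p = 0.69), EIF2B3, a catalytic subunit of eIF2B, by -0.50 (adjusted p = 0.694), and the eIF3 subunit EIF3G by 0.49 (adjusted p = 0.771). EIF5 by ILMN_1815733 differed by 1.63 (SE 0.85, adjusted p = 0.717), from 10.79, 10.62 and 8.95 to 11.57, 12.21 and 11.48. EEF1G differed by 1.47 with an SE of 1.21, since wtGR dex array 3 stood apart. The EEF1A1 probes differed by -0.20 to 1.12, EEF2 by 0.06, EIF4EBP1 by 0.21, EIF2AK3 by -0.07 and EIF2S1 by -0.32.

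In GR3KR cells with 15d-PGJ2, 7 of 12 eEF1 probes were called lower and 1 higher, and 9 of 17 eIF4 probes lower and 2 higher. Of 6 eIF2B probes 2 were called higher and none lower, and of 5 eIF2 group probes 2 higher and 1 lower. Over all probes, 27.2% were called higher and 17.6% lower. Of the 89 probes, 48 were called, 20 higher and 28 lower, or 53.9%, where 44.8% of all probes were called. Members called lower were 28 of 89, where 17.6% of all probes were called lower, and those called higher 20 of 89, where the share over all probes was 27.2%. The members' median was -0.17 and that of all probes 0.18. Groups did not overlap in 50 member probes (56.2%, against 54.3% of all probes). Without the 3 arrays, 12 (13.5%) were called, 2 higher and 10 lower, beside 5.03% of all probes, 1.19% higher and 3.84% lower; 11 of the 48 were among them, and 46 of 48 kept their sign.

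The split of the calls moved with the choice of probes and with the scaling. With 1 probe per gene, 16 of 62 members were higher and 17 lower, where 45.5% of all fitted probes were called. The members' median was then 0.07, beside 0.26 over all. With only probes detected on all 12 arrays, 20 of 69 members were higher and 19 lower, where 49.7% of all were called. These medians were then 0.08 and 0.39. With arrays scaled to a common median, 2 were higher and 27 lower of 29, and the median of all probes was -0.17; with cyclic loess 8 were higher and 29 lower of 37, and that median was 0.00. With the disagreement index as a covariate none was called. The index did not overlap between the GR3KR dex and GR3KR 15d-PGJ2 arrays, so that index and treatment cannot be told apart there. Without GR3KR dex array 1 or 3 the count was 20 or 29, and without GR3KR 15d-PGJ2 array 1 or 2 it was 26 or 17.

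**Figure D2:**
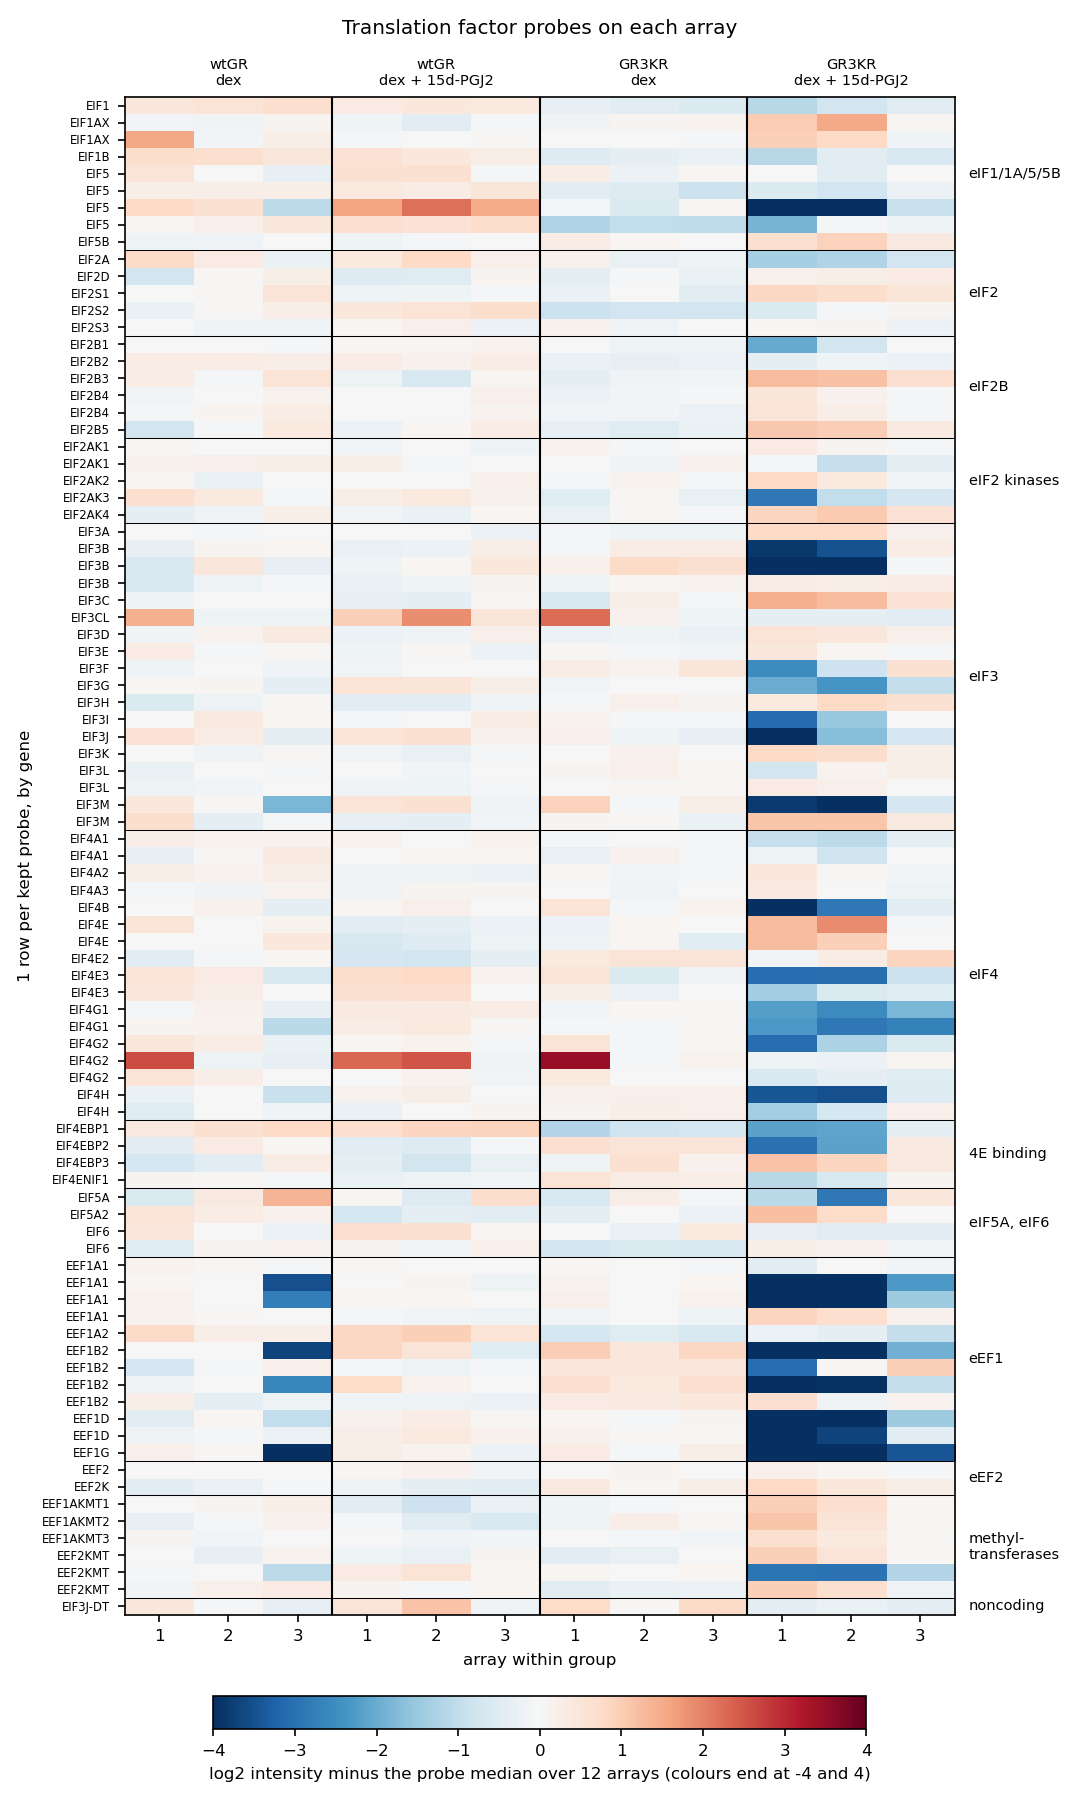
Log2 intensity of each of the 89 translation factor probes on each of the 12 arrays, minus the probe's median over the 12 arrays, with colours that end at -4 and 4; probes are ordered by role and arrays by group. The lowest values lie on GR3KR 15d-PGJ2 arrays 1 and 2, many of the same probes are lower on array 3 of that group, and several are lower on wtGR dex array 3.

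The eEF1 complex held the largest differences: 7 of its 12 probes were lower and 1 was higher, with a median of -3.31. EEF1G, the structural subunit of eEF1B, read 14.26, 13.89 and 14.19 on the GR3KR dex arrays and 7.01, 6.72 and 10.51 with 15d-PGJ2 (ILMN_2262288). The groups did not overlap, and the log2 difference of EEF1G was -6.03 (SE 1.21, adjusted p = 0.00757), or 65.4-fold. Without the 3 arrays its difference was -3.60 (adjusted p = 0.000573). On wtGR dex array 3, which received no 15d-PGJ2, the same probe read 9.44.

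EEF1D, a nucleotide exchange subunit, was lower by both of its probes. ILMN_2408039 read 12.61, 12.5 and 12.53 and then 8.02, 8.75 and 11.99 (log2 difference -2.96, adjusted p = 0.0138; -0.55 and not called without the 3 arrays). ILMN_1782543 was at least 12-fold lower, as 1 of its treated arrays was below detection, and was called in both fits. A bound of this kind sets the mean of the brighter group against the lowest detected signal of each array on which the probe was not detected.

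EEF1B2, the other exchange subunit, differed between its 4 probes. ILMN_1685678 read 10.87, 10.31 and 10.71 and then 4.72, 4.58 and 7.96, at least 13.8-fold lower (adjusted p = 0.00888), and ILMN_1701930 was at least 6.68-fold lower (adjusted p = 0.011). ILMN_2318725 read 13.55, 13.56 and 13.64 and then 13.89, 13.07 and 13.35 (log2 difference -0.15, adjusted p = 0.596). ILMN_1694587 was at 10.03 on treated array 1 and at 13.13 and 14.02 on the others (-1.13, adjusted p = 0.236).

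EEF1A1, which encodes the eEF1A of most cells, also had 4 probes, and they parted in 3 ways. ILMN_1343291 stayed between 14.25 and 14.8 on all 12 arrays (log2 difference -0.17, adjusted p = 0.362). ILMN_1810810 read 14.69, 14.53 and 14.62 and then 9.01, 9.44 and 12.24 (-4.38, SE 0.97, adjusted p = 0.00936), and ILMN_2038774 read 14.82, 14.6 and 14.73 and then 9.49, 9.85 and 13.17 (-3.88, SE 0.93, adjusted p = 0.0115). ILMN_3251737 read 9.33, 9.44 and 9.28 and then 10.31, 10.11 and 9.61, a rise by the test (0.66, SE 0.18, adjusted p = 0.0179). Which of these probes also reads EEF1A2 or EEF1A1 pseudogenes is not given. EEF1A2 itself differed by 0.08 (adjusted p = 0.777).

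**Figure D3:**
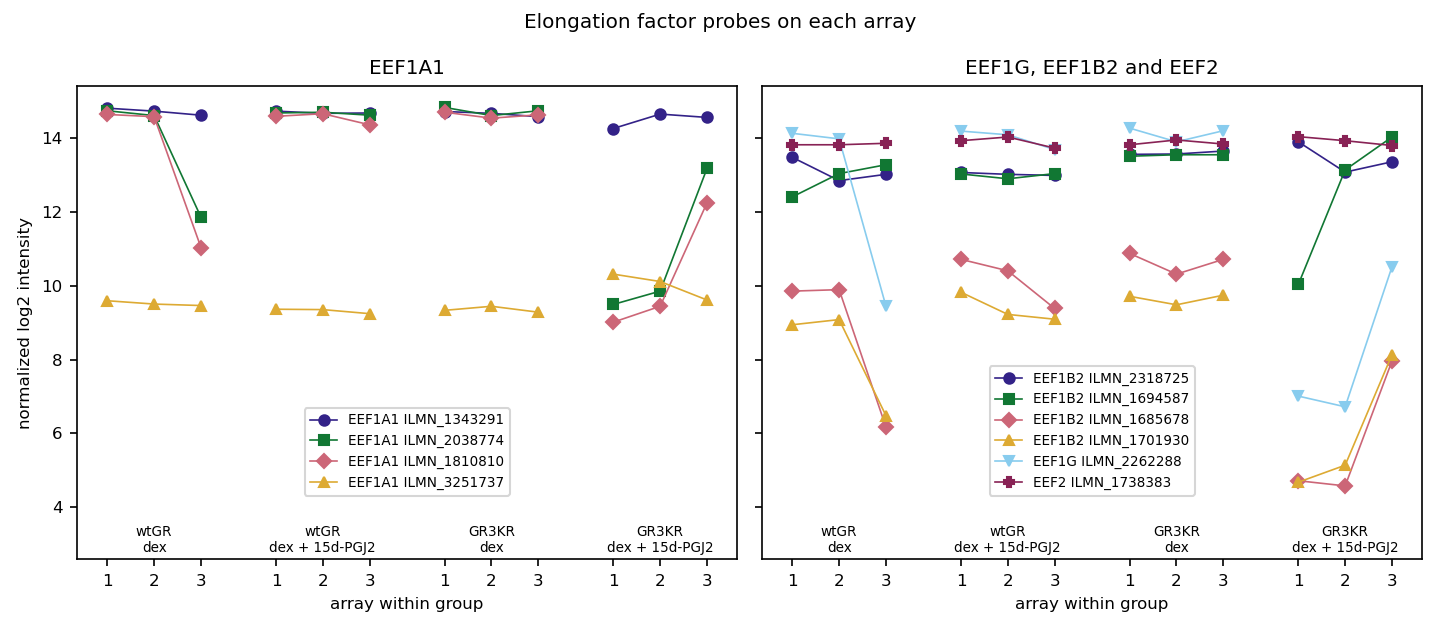
Normalized log2 intensity (vertical axis) of the 4 EEF1A1 probes (left) and of the EEF1B2, EEF1G and EEF2 probes (right) on the 3 arrays of each group (horizontal axis), with a line for each probe within a group. EEF2 and 1 EEF1A1 probe are level on all arrays, while EEF1G and 4 other probes are low on GR3KR 15d-PGJ2 arrays 1 and 2, less low on array 3 and low on wtGR dex array 3.

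EEF2, the translocase, read 13.81, 13.94 and 13.83 in GR3KR cells under dexamethasone and 14.03, 13.92 and 13.79 with 15d-PGJ2 (log2 difference 0.05, SE 0.15, adjusted p = 0.773). Its groups overlapped, and EEF2K differed by 0.26 (adjusted p = 0.262). Among the methyltransferases of elongation factors, 3 of 6 probes were higher and 1 lower. EEF2KMT, which methylates eEF2, was higher by ILMN_3250592 (0.81, adjusted p = 0.0269) and ILMN_1780298 (0.77, adjusted p = 0.0255) and at least 2.54-fold lower by ILMN_2400250 (adjusted p = 0.00681). EEF1AKMT1 was 1.56-fold higher (adjusted p = 0.0445). Of these 4 calls, the lower EEF2KMT probe alone was called without the 3 arrays.

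The factors of the scanning ribosome gave 2 higher and 1 lower of 9 probes. EIF5 by ILMN_1815733 read 9.94, 9.42 and 10.05 and then 5.53, 5.45 and 9.11, at least 5.94-fold lower (adjusted p = 0.0169; -0.70 and not called without the 3 arrays). The other EIF5 probes differed by 0.36, 0.10 and -0.20, and the first of them was called higher at 0.90 without the 3 arrays (ILMN_2318430, adjusted p = 0.027). EIF1AX, which helps scanning, was 1.78-fold higher by ILMN_1755419 (adjusted p = 0.0413) and differed by 0.56 by ILMN_1813240 (adjusted p = 0.255). EIF5B, the GTPase that joins the ribosomal subunits, was 1.43-fold higher (adjusted p = 0.0401). EIF1 differed by -0.32 (adjusted p = 0.17) and EIF1B by -0.36 (adjusted p = 0.142).

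Of the 5 probes of eIF2 and the alternative tRNA carriers, 2 were higher and 1 lower, where all probes gave 27.2% higher and 17.6% lower. EIF2S1 read 8.6, 8.85 and 8.44 and then 9.7, 9.56 and 9.34, a 1.87-fold rise (log2 difference 0.90, SE 0.19, adjusted p = 0.0081), and its groups did not overlap; without the 3 arrays it differed by 0.71 (adjusted p = 0.0768). EIF2S2 read 7.97, 8.05 and 8.1 and then 8.24, 8.79 and 8.93 (0.61, SE 0.21, adjusted p = 0.0359). It was the only higher call kept without the 3 arrays (0.89, adjusted p = 0.0397), while with median scaling its difference was -0.01. EIF2A, an alternative carrier of initiator tRNA, was 2-fold lower (adjusted p = 0.0182).

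For eIF2B, 2 of 6 probes were higher and none lower. EIF2B3 read 7.54, 7.81 and 7.84 and then 9.22, 9.1 and 8.6, a 2.37-fold rise (log2 difference 1.24, SE 0.25, adjusted p = 0.00756). EIF2B5, the other catalytic subunit, was 2.24-fold higher (adjusted p = 0.0128). Both had groups that did not overlap, and neither was called without the 3 arrays (0.87 and 0.71). The probes of EIF2B4 differed by 0.32 and 0.38, with adjusted p of 0.153 and 0.103.

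Of the eIF2 alpha kinases, EIF2AK4, the kinase of amino acid shortage, was 1.91-fold higher (log2 difference 0.93, SE 0.20, adjusted p = 0.00929). EIF2AK3 was called lower, with 6.87, 7.4 and 7.05 and then 4.49, 6.37 and 6.66. Only 1 of its treated arrays was above detection, so it was at least 1.61-fold lower (adjusted p = 0.0466), and it was not called without the 3 arrays (-0.45). The probes of EIF2AK1, the haem-regulated kinase, differed by 0.11 and -0.46, and neither was called.

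The 14 measured genes of eIF3, the scaffold of the initiating small subunit, were divided: 5 of 18 probes were higher and 6 lower. The higher calls were EIF3C (2.33-fold, adjusted p = 0.00951), EIF3M by ILMN_2192694 (0.90 on the log2 scale), EIF3A (0.72), EIF3D (0.63) and EIF3K (0.51). The lower calls were EIF3B by ILMN_2278729 (at least 6.27-fold) and ILMN_1715636 (-2.53), EIF3M by ILMN_2192693 (-3.19), EIF3J (at least 3.18-fold), EIF3G (-1.74) and EIF3I (-1.54). EIF3G read 11.85, 11.96 and 11.93 and then 9.95, 9.57 and 11 (SE 0.31, adjusted p = 0.00629), and it was the only eIF3 call that held without the 3 arrays (-0.92, adjusted p = 0.0275). EIF3B by ILMN_1715636 read 7.92, 8.28 and 12.06 on the treated arrays against 11.69 to 12.08, so that treated array 3 lay among the controls, and its difference without the 3 arrays was 0.11. EIF3C and EIF3CL are near-identical genes, and their probes, which differed by 1.22 and -1.12, may share signal.

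In the eIF4 group, 9 of 17 probes were lower and 2 higher. Both higher calls were EIF4E probes. The EIF4E probe ILMN_2050761 passed the detection filter only through the treated arrays on which it was high. Its higher call, counted here and among all members, is therefore not a separate result. EIF4G1, the scaffold that joins eIF4E and eIF4A, was lower by both probes on all 3 treated arrays. ILMN_1768470 read 11.24, 11.4 and 11.39 and then 9.14, 8.79 and 9.51 (log2 difference -2.20, SE 0.20, adjusted p = 0.000947), and ILMN_2370772 read 10.87, 10.9 and 10.98 and then 8.65, 8.08 and 8.24 (-2.59, SE 0.30, adjusted p = 0.00203). These were 4.6-fold and 6.04-fold lower levels. Without the 3 arrays EIF4G1 was called at -1.84 and -2.67, and with the index as a covariate its probes differed by -1.62 and -2.03 and were not called (adjusted p = 0.336 and 0.843).

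The helicase partners were lower too. EIF4B read 13.11, 12.54 and 12.7 and then 8.13, 9.71 and 12.12 (log2 difference -2.80, adjusted p = 0.0149), and EIF4H by ILMN_1776021 read 12.29, 12.34 and 12.34 and then 8.7, 8.6 and 11.6 (-2.69, adjusted p = 0.0112). The second EIF4H probe, ILMN_2304624, differed by -0.82 (adjusted p = 0.0578). EIF4E3, a cap-binding paralog, was at least 1.98-fold lower by ILMN_1796146 and 1.74-fold lower by ILMN_2225144. None of the EIF4B, EIF4H and EIF4E3 probes was called without the 3 arrays.

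EIF4A1, the main helicase, was 1.67-fold lower by ILMN_1722900 (adjusted p = 0.0117) and differed by -0.28 by ILMN_3251629 (adjusted p = 0.351); probes of EIF4A1 and its close paralog EIF4A2 may share signal. EIF4G2, a scaffold that does not bind eIF4E, was lower by ILMN_2380946 (-0.61) and ILMN_1761519 (-1.81). EIF4E itself was 1.92-fold higher by ILMN_3250077 (adjusted p = 0.0312); ILMN_2050761 was below detection on all GR3KR dex arrays and above it on 2 treated arrays, so no fold is given. On GR3KR 15d-PGJ2 array 3 these EIF4E probes read 6.3 and 4.97, within the range of the controls.

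Among proteins that bind eIF4E, EIF4EBP2 was at least 4.19-fold lower (adjusted p = 0.0236) and the transporter EIF4ENIF1 1.9-fold lower (adjusted p = 0.0186). EIF4EBP1 read 6.59, 6.62 and 8.37 with 15d-PGJ2 and did not pass (-0.65, adjusted p = 0.195). None was called without the 3 arrays. EIF6, which keeps the large subunit from joining, was 1.69-fold higher by ILMN_1787410 (adjusted p = 0.0149), and EIF5A2 1.8-fold higher (adjusted p = 0.029). EIF6 by ILMN_1722151 differed by -0.47, and EIF5A by -1.04, with neither called. EIF3J-DT, a noncoding transcript that matched by its symbol, was below detection on all treated arrays (-0.86, adjusted p = 0.0518).

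Probes of the same gene disagreed widely in this effect. Of the 18 genes with 2 or more kept probes (45 probes), 8 had probes of opposite sign, and in EEF1A1, EEF2KMT and EIF3M 1 probe was called higher and another lower. The median gap between the highest and the lowest probe of a gene was 1.21 on the log2 scale, and the largest 5.04, in EEF1A1. In wtGR cells the median gap was 0.29, and between the lines under dexamethasone 0.36. A gap over 1 was found in 10 genes in GR3KR cells, in 6 without the 3 arrays, in 5 in wtGR cells and in 3 between the lines. In the latter comparisons it was found in none without the 3 arrays.

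Both EIF4G1 probes, both EEF1D probes, both EIF4E probes and both EIF2B4 probes lay within 0.76 of each other. EEF1A1, EEF1B2, EIF3B, EIF3M, EIF5 and EEF2KMT had gaps of 3.20 or more. A difference in level of these 6 genes between the GR3KR groups therefore depends on the probe that is read, and probe positions within the transcripts were not used here. EIF3CL and EIF4G2 by ILMN_2279635 were each detected only on the 4 arrays with an index over 0.2, where they read 5.71 to 7 and 7.08 to 8.27. On the other 8 arrays, whichever the group, they were below detection, at 4.34 to 5.24 and 4.44 to 4.93. Both passed the filter through the arrays on which they were high, so this split is not a separate result.

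**Figure D4:**
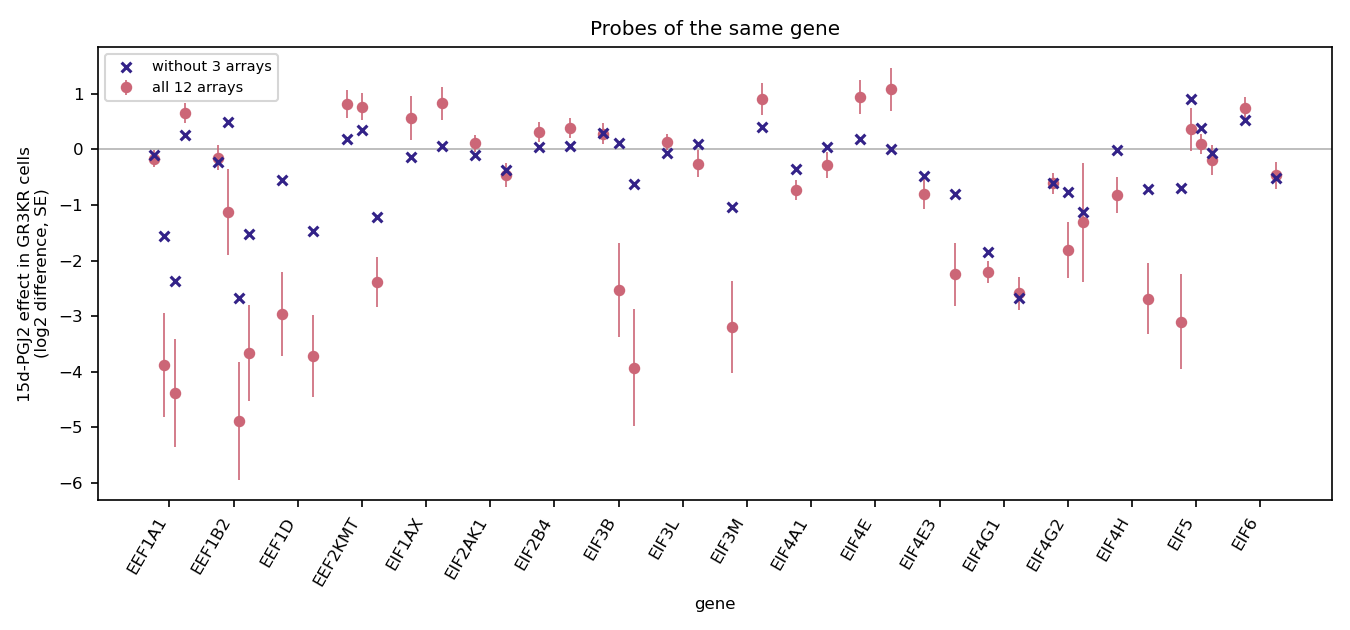
Log2 difference of each kept probe (points) of the 18 genes with 2 or more kept probes, for the 15d-PGJ2 effect in GR3KR cells, over all 12 arrays with SE bars, and as crosses without the 3 arrays. The EEF1A1 points run from -4.38 to 0.66, whereas the EIF4G1 points lie at -2.59 and -2.20.

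Many, but not all, of the probes that were low with 15d-PGJ2 in GR3KR cells were also low on wtGR dex array 3. Across the 89 probes, the shift of that array from the mean of wtGR dex arrays 1 and 2 correlated with the shift of GR3KR 15d-PGJ2 arrays 1, 2 and 3 from the GR3KR dex mean at Pearson values of 0.712, 0.748 and 0.872 (Spearman 0.613, 0.65 and 0.859). Over all 20909 probes the Pearson values were 0.648, 0.657 and 0.842. These values describe probes that share arrays and gene families and are not replicates. Of the 19 member probes with a mean shift below -2 in GR3KR cells, 17 were also below 0 on wtGR dex array 3, and 10 were below -1 there; of the other 70 probes, 1 was below -1. Their medians on that array were -1.03 and 0.08. EIF3B by ILMN_1715636 (0.19) and EEF1D by ILMN_2408039 (-0.09) were among the lowered probes that stayed near 0 there.

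Member probes below -1 on single GR3KR 15d-PGJ2 arrays numbered 33, 30 and 12, or 37.1%, 33.7% and 13.5%, where all probes gave 23.6%, 21.2% and 9.38%. EEF1G, EEF1B2 by ILMN_1685678 and EEF1A1 by ILMN_1810810 had the 3 lowest shifts on wtGR dex array 3 (-4.61, -3.70 and -3.57) and on GR3KR 15d-PGJ2 array 1. EIF3B by ILMN_2278729 was at -5.55 and -5.63 on GR3KR 15d-PGJ2 arrays 1 and 2 but at -0.26 on wtGR dex array 3. EIF4G1 by ILMN_1768470 read 11.01 on wtGR dex array 3, against 11.28 and 11.5, and by ILMN_2370772 9.85, against 11.05 and 11.09. The part of array quality in the GR3KR values was looked at only by the second fit and the index, and neither can tell it from treatment.

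**Figure D5:**
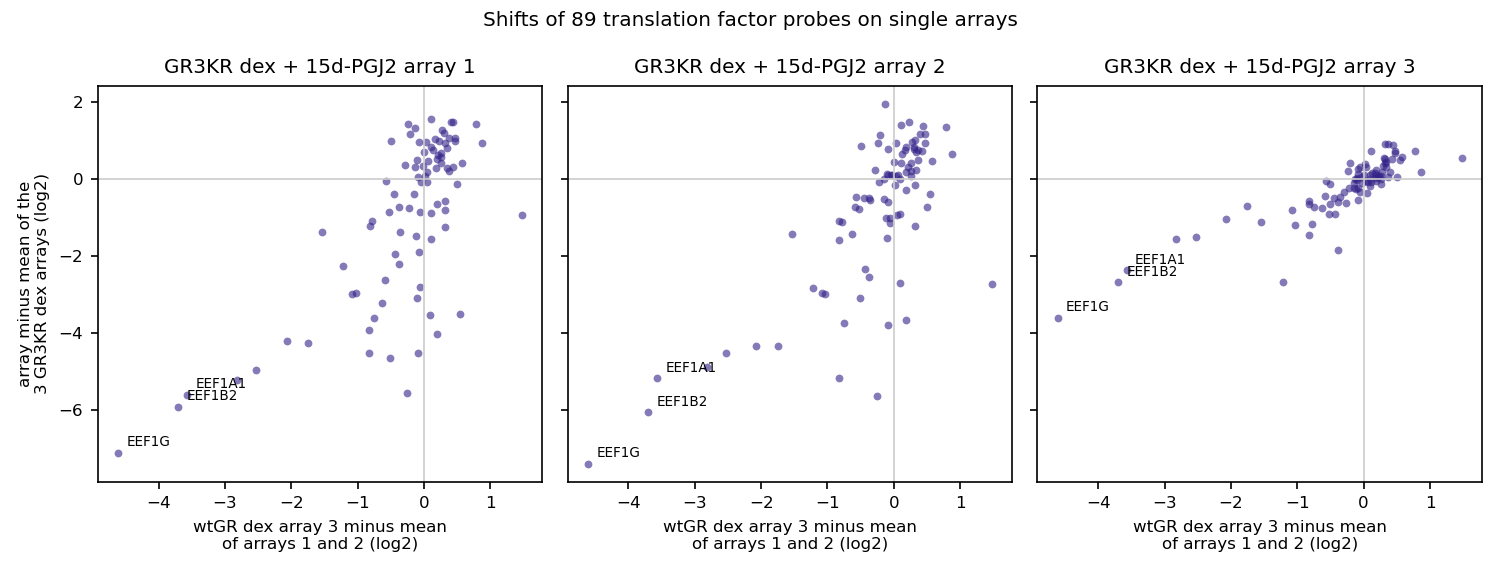
Shift of the 89 translation factor probes on wtGR dex array 3 from the mean of arrays 1 and 2 of its group (horizontal axis, log2) against their shift on each GR3KR 15d-PGJ2 array from the GR3KR dex mean (vertical axis, log2). EEF1G, EEF1B2 and EEF1A1 lie at the lower left in all 3 panels, and the points of array 3 lie closest to a line, with a Pearson value of 0.872.

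The difference of the 15d-PGJ2 effects between the lines, which tests whether GR3KR cells differed from wtGR cells in their response, was called for 25 of the 89 probes, 10 higher and 15 lower (28.1%, against 23.7% of all probes, 14.6% higher and 9.03% lower). Lower calls included EEF1G (-7.51, SE 1.72, adjusted p = 0.0225), EEF1A1 (-5.50 and -4.81) and EEF1D by ILMN_2408039 (-3.38). EEF1B2 by both low probes, EIF5 by ILMN_1815733 and EEF1D by ILMN_1782543 were called lower too, but 1 or 2 of their 3 GR3KR 15d-PGJ2 arrays were below detection, so their fitted differences have no rank among these. EIF4G1 had the smallest adjusted p-values, 0.011 for both probes, at -2.61 (SE 0.29) and -3.12 (SE 0.43). The higher calls were led by EIF2B3 (1.74, SE 0.35, adjusted p = 0.0187), EIF5A2 (1.69), EIF4E (1.56), EIF3C (1.39), EIF3M (1.29), EEF1AKMT1 (1.26) and EIF2S1 (1.23, SE 0.26, adjusted p = 0.0209).

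For the genes followed throughout, EEF2 had a difference of -0.01, EIF2AK3 of -1.20 and EIF4EBP1 of -0.86, and none of these passed. EIF2B3 had read lower with 15d-PGJ2 in wtGR cells (-0.50) and higher in GR3KR cells (1.24), and EIF5A2 likewise (-0.84 and 0.85), but neither wtGR value passed (adjusted p = 0.694 and 0.508). Without the 3 arrays 9 of the 25 were called, all lower: EEF1G (-3.54), both EEF1A1 probes (-2.30 and -1.54), EEF1B2 (-1.89), EEF1D (-1.82), both EIF4G1 probes (-2.12 and -2.79), EEF2KMT (-1.56) and EIF3G (-1.26). All probes gave 2.34% in that fit, 0.258% higher and 2.08% lower. With median scaling 4 were higher and 10 lower, and with cyclic loess 2 and 13. With 1 probe per gene 9 of 62 members were higher and 8 lower, where 24.7% of all fitted probes were called.

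The count of 25 rested on many arrays at once. It was 2 without wtGR 15d-PGJ2 array 1 or 2, GR3KR dex array 1 or 3 or GR3KR 15d-PGJ2 array 2, 7 without GR3KR 15d-PGJ2 array 1, 10 and 15 without wtGR dex array 3 and 2, and 55 without GR3KR 15d-PGJ2 array 3. With the index as a covariate it was 0.

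Between the lines with dexamethasone and 15d-PGJ2, 56 of 89 probes were called, 21 higher and 35 lower in GR3KR cells (62.9%, against 50.7% of all probes, 29.6% higher and 21.1% lower). Groups did not overlap in 64 probes (71.9%, against 55% of all probes). The members' median was -0.51, and that of all probes 0.12. With 1 probe per gene, 18 of 62 members were higher and 22 lower, where 51.4% of all fitted probes were called. These medians were then 0.03 and 0.21. This comparison uses the same GR3KR 15d-PGJ2 arrays as the effect above and is not independent of it.

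The 5 probes that were lower under dexamethasone alone were lower here as well. EIF1 differed by -1.12 (adjusted p = 0.00146), EIF1B by -1.17 (adjusted p = 0.0015), EEF1A2 by -1.29 (adjusted p = 0.00199) and EIF2B2 by -0.51 (adjusted p = 0.0101). EIF5 by ILMN_1786734 was at least 1.5-fold lower (adjusted p = 0.00299), but was not called without the 3 arrays (-0.63, adjusted p = 0.0532). EIF4EBP1 read 9.4, 9.59 and 9.61 in wtGR and 6.59, 6.62 and 8.37 in GR3KR cells, without overlap (-2.34, SE 0.40, adjusted p = 0.00176; -1.16 and adjusted p = 0.0131 without the 3 arrays).

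Among probes whose groups did not overlap, large lower values were those of EEF1G (-5.90), EIF5 by ILMN_1815733 (at least 23-fold), EEF1B2 (at least 9.96-fold and at least 5.54-fold), EEF1A1 (-4.30 and -3.82), EEF1D (at least 13-fold and -3.12) and EIF3M (-3.16). EIF4G1 was lower by both probes (-2.53 and -2.86, adjusted p = 5.55e-05 and 0.000264). The largest higher values were those of EIF4E (1.21 by ILMN_3250077, adjusted p = 0.00929), EIF3C (1.30), EIF2B3 (1.28), EIF4EBP3, a further eIF4E binding protein (1.24), EIF5A2 (1.16), EIF3M by ILMN_2192694 (1.14) and EIF1AX (1.09). EIF2S1 was higher (0.79, adjusted p = 0.00672), EIF2AK3 at least 2.27-fold lower (adjusted p = 0.0109), and EEF2 differed by 0.03.

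Without the 3 arrays 27 were called, 4 higher and 23 lower, against 23.8% of all probes (13.1% higher and 10.7% lower), and 25 of the 56 were among them (2 higher and 23 lower). EIF3H (0.96, adjusted p = 0.0213) and EIF4E2 (1.47, adjusted p = 0.00464) were the higher calls that held. With the index as a covariate 1 call was left. With median scaling 9 were higher and 35 lower, and the median of all probes was -0.27.

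The genes with an oligopyrimidine start were compared with the others by counts only, without a test. In the GR3KR effect, 4 of the 19 probes of the 12 genes with the tract were higher and 7 lower, with a median of -0.17; of the 51 probes of the 36 genes without it 11 were higher and 17 lower, with a median of -0.28. All probes gave 27.2% higher and 17.6% lower in that effect. These counts are of probes and not of separate genes. EEF1A1 and EEF1B2, both with the tract, each held probes that were called lower and probes that were not. When the 3 arrays were left out, the medians were -0.1 with the tract and 0.0 without it. In the difference of effects, 5 of 19 and 6 of 51 were lower and 3 and 6 higher, beside 9.03% lower and 14.6% higher of all probes. Of the genes with printed windows, EEF2 stood at 0.05 and EEF1G at -6.03. The search was made at the annotated start base only and would miss a tract that begins elsewhere, so EEF1G is not shown to lack one. Under dexamethasone alone, the class with the tract held none of the lower probes and that without it 4 of 51, where 3.08% of all probes were lower. EEF1A2 had no start site in the table.

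Genes of the pathway outside the family came from 4 lists with 46 genes, of which 42 were measured. Each gene was read by its brightest kept probe alone, so another probe of it may differ. The shares set beside these counts are over all probes and not over 1 probe per gene. None of the 42 genes was called in wtGR cells, where 0.0765% of all probes were called. Between the lines under dexamethasone, 1.54% of all probes were higher in GR3KR cells and 3.08% lower. Under dexamethasone, 1 was higher in GR3KR cells (GSPT2, a release factor GTPase, 0.69) and 3 were lower: DDIT4, which restrains mTOR (-0.94), GFM1, the mitochondrial elongation factor G (-0.78), and MTRF1, a mitochondrial release factor (-0.99). In the GR3KR effect, 9 were higher and 8 lower, near the shares over all probes (27.2% higher, 17.6% lower), and without the 3 arrays MCTS1 was higher and PABPC4 and PPP1CA were lower.

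Among release, recycling and rescue factors, 3 of 11 were higher in that effect and 2 lower, with MCTS1, which acts in reinitiation, at 1.85 (adjusted p = 0.00567) and NEMF, which works on stalled ribosomes, at -2.81 (adjusted p = 0.0114). Of the poly(A) and cap regulators, 2 of 9 were higher and 4 lower, including PABPC4, a poly(A) binding protein, at -2.73 (adjusted p = 0.00918). Of 14 regulators of mTOR and of eIF2 phosphatase, TSC1, which restrains mTOR, was higher (0.80), and MTOR (-0.61) and the phosphatase subunit PPP1CA (-4.95, adjusted p = 0.00558) were lower. Of the mitochondrial translation factors 3 of 8 were higher, MTRF1 (0.81), MRRF (0.69) and MTRF1L (0.64), and none lower. Between the lines with 15d-PGJ2, 11 of the 42 genes were higher and 11 lower, beside 29.6% and 21.1% of all probes. The difference of effects was called for 4 higher and 3 lower, beside 14.6% and 9.03% of all probes.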

How the data were processed

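Total RNA of 12 samples in 4 groups of 3 was labelled as cRNA and hybridised to Illumina bead arrays, per the labels. The authors deposited a table of intensity values with a detection p-value for each probe and array, not normalized, and a table of log2 values, whose scale was checked against the intensities (Pearson 0.984 to 0.998, array medians 6.93 to 6.98). The submitters' processing notes name lumi; its version and settings are not given in the sources used here. Gene symbols are those of the deposited tables.

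The intensities were corrected for background and quantile normalized by neqc (offset 16, log2), in limma 3.58.1 under R 4.3.3. A probe was kept if its detection p-value was below 0.01 on 3 or more arrays. Means of the 4 groups were fitted with lmFit and eBayes to all 20909 kept probes (8 residual and 2.66 prior degrees of freedom), with 2-sided tests of 5 comparisons and Benjamini-Hochberg adjustment over all kept probes. The number of arrays limits the precision. The fit was tested on simulated data. The main fit did not pair samples by replicate number. Deviations of same-numbered arrays correlated between -0.748 and 0.749 over 18 pairs, 12 of them at or under 0.1. Arrays numbered 1 of wtGR dex, wtGR 15d-PGJ2 and GR3KR dex, however, correlated with each other at 0.682 to 0.749. Arrays numbered 3 of wtGR dex and wtGR 15d-PGJ2 correlated at 0.683. Whether part of the same-numbered arrays were handled together was not tested.

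Members, gene lists and tests were chosen with earlier results of these data known. Named were called probes with the largest difference and groups that do not overlap (up to 10 in each direction), up to 4 called members of each role group, or, in a group without calls, up to 2 of smallest p, all probes of genes with several, and EEF1A1, EEF1G, EEF2, EIF4EBP1, EIF2S1 and EIF2AK3. For the difference of effects and for the lines with 15d-PGJ2 the naming was narrowed to up to 10 in each direction, and for the other lists to up to 3 genes each. The members shown beyond this rule, such as EIF3H and EIF4E2, were chosen after their values were seen. Start windows come from RefSeq tables on GRCh38.p14. Alternatives were other background corrections, scalings, filters and sources, 1 probe per gene, left-out arrays, array weights, the index and a replicate block.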

Additional observations from a re-analysis of the deposited data

Results flagged for a closer look

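The test of the difference between the 15d-PGJ2 effect in GR3KR cells and that in wtGR cells set 25 member probes apart, each with an adjusted p under 0.05 in limma's fit. The values are fitted log2 differences, GR3KR minus wtGR. For both EEF1B2 probes, EEF1D at -4.34, EEF2KMT, EIF4E3 and EIF5, 1 or 2 of the 3 GR3KR 15d-PGJ2 arrays were below detection, so their values rest on background readings and are neither exact nor ranked. Elongation factors with a lower effect in GR3KR cells were EEF1G (-7.51), EEF1B2 (-6.41 and -4.87), EEF1A1 (-5.50 and -4.81) and EEF1D (-4.34 and -3.38), with the methyltransferase EEF2KMT at -3.08. Initiation factors with a lower effect were EIF5 (-4.74), EIF3M (-3.97), EIF4H (-3.21), EIF4G1 (-3.12 and -2.61), EIF4E3 (-2.70) and EIF3G (-2.23). Higher effects were those of EIF2B3 (1.74), EIF5A2 (1.69), EIF4E (1.56), EIF3C (1.39), EIF3M by ILMN_2192694 (1.29), EEF1AKMT1 (1.26), EIF2S1 (1.23), EIF2AK4 (0.92), EEF1A1 by ILMN_3251737 (0.86) and EIF3D (0.82). Single arrays were not tested as outliers, since each group holds 3.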

How the results depend on the processing

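The count of member probes called was recomputed under each alternative. It was out of 89, except 62 with 1 probe per gene, 69 with probes detected on every array and 108 with no filter on dim probes. The count moved by less than 1.5 times in all 5 comparisons with no background correction, an offset of 50, the deposited log2 table, 1 probe per gene or probes detected on every array. With the last 2 of these, higher and lower calls were more even wherever GR3KR 15d-PGJ2 arrays were compared. With median scaling it was 29 for the effect in GR3KR cells, 14 for the difference of effects and 8 for the lines under dexamethasone. The difference gave 15 with cyclic loess and 12 with no filter on dim probes. Without GR3KR 15d-PGJ2 arrays 1 and 2 the counts were 1 for the effect, 0 for the difference, 9 for the lines under dexamethasone and 14 for those with 15d-PGJ2; the difference then had 21 probes at an unadjusted p under 0.05. Without wtGR dex array 3 as well, the counts were 12, 9, 12 and 27. Array weights gave 18 in wtGR cells (9 higher and 9 lower), 65 for the difference and 23 for the lines under dexamethasone, where 29.6%, 67.2% and 35.2% of all probes were called. With the index as a covariate the counts were 0, 0, 9 and 1 (3, 3, 19 and 10 at an unadjusted p under 0.05), and without arrays 1 and 2 as well 2 in wtGR cells, then 0, 0, 20 and 10 (10 and 11 at an unadjusted p under 0.05 for the first 2 of these). Leaving out 1 array at a time gave 0 in wtGR cells throughout, 17 to 59 for the effect in GR3KR cells, 2 to 55 for the difference, 0 to 8 for the lines under dexamethasone and 48 to 68 for those with 15d-PGJ2.

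Same-numbered arrays are not said to be paired, though some of them correlated, as given above. With the replicate number as a block the counts were 0, 44, 15, 4 and 55 in the order wtGR effect, GR3KR effect, difference, lines under dexamethasone and lines with 15d-PGJ2, and 4 of 12 arrays correlated best with their own number. The alternative without the 3 arrays was chosen after seeing the data, and those with the index with earlier results known. A block for the chip was not run, as no chip is given. The number of arrays, and in GR3KR cells their signal over background, limits what can be told. The causes of the changes were not tested.

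Signs were followed for the 48 called values of the effect in GR3KR cells, for 20 of the 25 of the difference, for all 5 of the lines under dexamethasone and for 20 of the 56 of those with 15d-PGJ2. Of these, the ones that turned sign were nearly all in fits with the index. With the index, 26 did so in the effect in GR3KR cells, to EEF1A1 0.11 and 0.58, EEF1AKMT1 -0.21, EEF1B2 0.16 and 0.48, EEF1D 0.16, EEF2KMT -0.03 and -0.21, EIF1AX -0.28, EIF2A 0.08, EIF2AK3 0.17, EIF3B 0.41, EIF3I 0.44, EIF3J 0.59, EIF3K -0.05, EIF3M 0.93, EIF4B 0.36, EIF4E -0.17 and -0.38, EIF4E3 0.47 and 0.12, EIF4EBP2 0.13, EIF4ENIF1 0.02, EIF4G2 0.13, EIF4H 0.13 and EIF5 1. In the difference 6 of the 20 did so, to EEF1A1 0.46, EEF1B2 0.02, EEF1D 0.30, EIF3M 0.90, EIF4H 0.12 and EIF5 0.11. Between the lines with 15d-PGJ2 9 of the 20 did so, to EEF1A1 0.35 and 0.80, EEF1B2 0.80 and 0.90, EEF1D 0.11, EIF1AX -0.07, EIF3M 1.11, EIF4E -0.15 and EIF4EBP3 -0.03. With the index and without arrays 1 and 2, 17 turned in the effect in GR3KR cells, to EEF1A1 0.29 and 0.54, EEF1AKMT1 -0.14, EEF1B2 0.46 and 0.45, EEF2KMT -0.12, EIF1AX -0.22, EIF2A 0.22, EIF2B5 -0.02, EIF3D -0.02, EIF3J 0.27, EIF3K 0, EIF3M 0.95, EIF4E -0.30, EIF4E3 0.46 and 0.13 and EIF5 0.84. The difference then had 5, at EEF1A1 0.14 and 0.38, EEF1B2 0.09, EIF2AK4 -0.08 and EIF3M 0.89. The lines with 15d-PGJ2 had 8, at EEF1A1 0.56 and 0.75, EEF1B2 1.15 and 0.86, EEF1G 0.29, EIF3M 1.12, EIF4E -0.06 and EIF4EBP3 -0.17. Apart from these, EIF2S2 was at -0.01 with median scaling, and EIF3B (ILMN_1715636) at 0.11 and EIF4E (ILMN_2050761) at 0 in the effect in GR3KR cells without arrays 1 and 2, with or without wtGR dex array 3.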
